A study of Homo sapiens with 6 samples.

Results

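TXNIP, 4 arrestin-domain genes related to it (ARRDC1, ARRDC2, ARRDC3 and ARRDC4) and 3 genes for the glucose-sensing factors that drive TXNIP transcription (MLX, MLXIP and MLXIPL) were examined in A549 cells with and without a guide against UXS1. The 8 genes were found by symbol among the 28317 genes of the deposited tables, and each symbol matched 1 row. The set was chosen by name, with the difference in RNA level between UXS1 KO and CTRL already in view, so for these 8 genes that difference is described and not tested. Each passed the filter on low counts, and the lowest count of any of them in any library was 18, so none passed only through the group where it was higher.

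RNA was sequenced from 6 cultures of A549, a long-established line of human lung adenocarcinoma cells. Cells of the UXS1 KO group (3 libraries) carried lentiCRISPR v2 with 1 guide against UXS1, which encodes UDP-xylose synthase and thereby consumes UDP-glucuronic acid, and cells of the CTRL group (3 libraries) carried the same vector with a non-targeting guide. Both groups had 5 days of puromycin selection, and cells were taken 7 days after infection, in DMEM with 10% serum and 2 mM glutamine. The labels name no clone, no second guide and no glucose level of the medium, and whether the replicates were infected separately is not stated, so the p-values here cover only the spread among these libraries, which may be technical.

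TXNIP is an arrestin-fold protein that binds reduced thioredoxin and promotes the uptake of glucose transporters from the cell surface. MondoA (the product of MLXIP) and ChREBP (the product of MLXIPL) each pair with MLX, move to the nucleus when glucose 6-phosphate builds up, and bind carbohydrate response elements, which are paired E-box-like half-sites, in the promoters of TXNIP and ARRDC4. The ARRDC proteins share the arrestin fold with TXNIP, and several act as adaptors that bring NEDD4-family ubiquitin ligases to membrane proteins.

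The stretches upstream of TXNIP and ARRDC4 are shown because these are the classical MondoA targets of the set and had the largest differences in it, and that of MLX because it holds the other E-box. Each is the 250 bases before a RefSeq transcript start, 5′ to 3′ on the gene's strand, in build GRCh38.p14. Capitals mark exact matches to the E-box CACGTG, the carbohydrate response element pattern or the CCAAT box CCAAT, which reads ATTGG where it lies on the other strand. The element pattern is a pair of half-sites CNCGNG with 5 bases of any kind between them, and all motifs were searched on both strands. The TXNIP window is chr1:145996580-145996829 (minus strand), that of ARRDC4 is chr15:97960453-97960702 (plus strand) and that of MLX is chr17:42566850-42567099 (plus strand).
TXNIP: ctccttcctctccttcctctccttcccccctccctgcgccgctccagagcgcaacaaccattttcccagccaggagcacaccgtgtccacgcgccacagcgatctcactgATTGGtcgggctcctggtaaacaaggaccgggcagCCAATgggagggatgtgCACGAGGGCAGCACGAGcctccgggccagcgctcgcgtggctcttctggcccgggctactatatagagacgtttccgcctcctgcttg
ARRDC4: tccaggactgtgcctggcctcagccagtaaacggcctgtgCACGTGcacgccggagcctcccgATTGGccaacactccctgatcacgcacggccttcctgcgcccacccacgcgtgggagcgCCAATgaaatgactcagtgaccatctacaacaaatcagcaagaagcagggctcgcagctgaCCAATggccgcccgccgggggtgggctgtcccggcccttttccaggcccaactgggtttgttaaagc
MLX: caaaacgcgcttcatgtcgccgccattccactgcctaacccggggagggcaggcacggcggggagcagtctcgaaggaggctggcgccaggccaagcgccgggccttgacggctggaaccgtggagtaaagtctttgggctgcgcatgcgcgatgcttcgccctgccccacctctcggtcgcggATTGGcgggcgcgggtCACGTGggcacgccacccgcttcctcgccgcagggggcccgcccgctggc

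The TXNIP window held 1 match to the element pattern, from base -88 to base -72 before the start, and 2 CCAAT boxes just upstream of it, ending at bases -136 and -101. CCAAT boxes are the binding sequence of the factor NF-Y. The ARRDC4 window held no match to the element pattern, 1 E-box from base -210 to base -205 and 3 CCAAT boxes. In the MLX window an E-box lay from base -50 to base -45 beside 1 CCAAT box. No match overlapped another in these windows, although a full element made of perfect E-boxes would match both patterns. Over the 35116 windows of the RefSeq table, 1.87% held the element pattern, 6.34% an E-box, 9.53% at least 2 CCAAT boxes and 2.93% at least 3.

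All 8 genes had an entry in the table, with 11 windows because TXNIP, ARRDC2 and ARRDC3 have a pair of starts each. The second TXNIP window, the downstream ARRDC3 window and the MLXIPL window held none of the 3 motifs. The upstream ARRDC2 window held the element pattern from base -24 to base -8, and the remaining windows, those of ARRDC1, MLXIP, ARRDC2 (downstream) and ARRDC3 (upstream), held 1 CCAAT box each. These letters were matched in the reference sequence and no binding was measured.

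**Figure D1:**
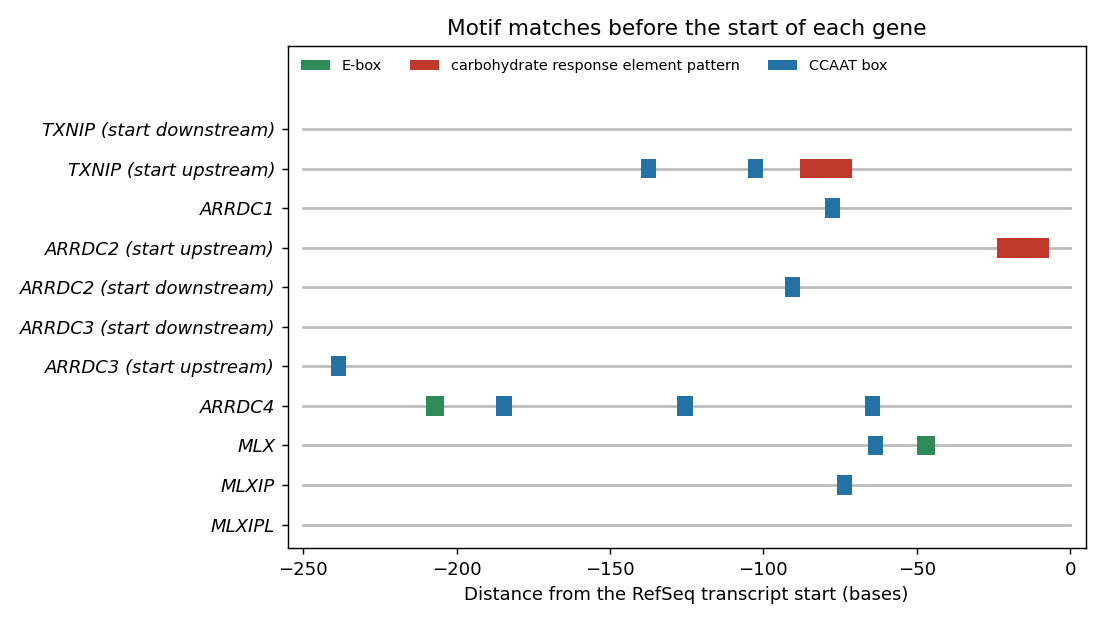
Matches to the E-box, the carbohydrate response element pattern and the CCAAT box in the 250 bases before each RefSeq start of the 8 genes (x axis, distance from the start in bases; 1 line per start). TXNIP has the element pattern with 2 CCAAT boxes upstream of it, and the upstream ARRDC2 start has the element pattern too. ARRDC4 has no element pattern, 1 E-box and 3 CCAAT boxes.

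Total counts ran from 21121489 to 22160405 per library. UXS1 transcript was at 740, 735 and 764 counts in UXS1 KO libraries and at 1346, 1416 and 1372 counts in CTRL libraries, which is 54.1% of control in CPM (log2 fold change -0.89, SE 0.048, edgeR adjusted p = 2.2e-14). Transcript left in the knockout group does not say how much protein was left. Of 15757 genes tested across the series, the share called at an edgeR adjusted p under 0.05 was 24.5% for higher and 23.7% for lower levels in UXS1 KO. All 8 epithelial markers were tested, of which 5 rose and 1 fell, and they summed to 13712 to 13730 CPM in UXS1 KO and 13523 to 14758 CPM in CTRL. The alveolar type II list summed to 124 to 133 CPM in UXS1 KO against 103 to 110 CPM in CTRL, nearly all of it ABCA3, with 2 of 2 tested members called higher, and its defining gene SFTPC was near 0, with 9 counts summed over UXS1 KO and 4 summed over CTRL. Of 5 leukocyte markers in the table, CD3E had no count in any library. The summed level of the list was 6.53 to 6.83 CPM in UXS1 KO against 2.95 to 3.22 CPM in CTRL, with 3 of 3 tested members called higher. Of these, LYZ (52 counts summed over UXS1 KO and 6 over CTRL) passed the filter on low counts only through UXS1 KO, so its call carries no weight. COL1A2 had no count either, and 7 fibroblast markers summed to 27.8 to 30.9 CPM in UXS1 KO and 22.5 to 25.9 CPM in CTRL, with 3 of 4 tested members called higher. The 5 endothelial markers summed to 1.27 to 1.52 CPM in UXS1 KO and 0.910 to 1.71 CPM in CTRL. The part of these marker levels in the results was not tested.

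TXNIP (ENSG00000265972.6, GRCh38 chromosome 1, positions 145992435 to 145996600, minus strand) had the widest difference in the set. Its counts were 285, 309 and 284 in UXS1 KO libraries and 20, 29 and 18 in CTRL libraries. Per length and depth this was 12.99, 13.9 and 12.5 TPM in UXS1 KO and 0.898, 1.27 and 0.830 TPM in CTRL. Every UXS1 KO library lay far above every CTRL library, and the groups averaged 13.1 ± 0.717 TPM and 0.998 ± 0.234 TPM (UXS1 KO and CTRL, SD, n = 3 each). The fitted log2 fold change of TXNIP was 3.70 (SE 0.145), the 8th highest of the 15757 genes tested. None of its exonic length overlaps another gene in the table. In RNA from a whole culture, more cells with the transcript and more transcript per cell cannot be told apart.

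By level, the mean TPM of TXNIP exceeded that of 49.6% of tested genes in UXS1 KO and that of 10.6% in CTRL. Among the 8 genes TXNIP was the third lowest in UXS1 KO and the lowest in CTRL.

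ARRDC4 (ENSG00000140450.9, chromosome 15, positions 97960698 to 97973838, plus strand), the closest ARRDC gene to TXNIP in its glucose response, differed in the same direction and by less. Its counts were 96, 104 and 87 in UXS1 KO libraries and 41, 30 and 29 in CTRL libraries. In TPM these were 3.88, 4.14 and 3.38 in UXS1 KO, against 1.63, 1.16 and 1.19 in CTRL. The groups did not overlap, with means of 3.80 ± 0.385 TPM in UXS1 KO and 1.33 ± 0.265 TPM in CTRL (SD, n = 3 each) and a fitted log2 fold change of 1.52 (SE 0.173). Within a library TXNIP stood at 3.35, 3.35 and 3.68 times the TPM of ARRDC4 in UXS1 KO, and at 0.550, 1.09 and 0.700 times in CTRL. TXNIP was above ARRDC4 in each UXS1 KO library, and the levels of the pair overlapped between CTRL libraries.

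ARRDC3 (ENSG00000113369.9, chromosome 5, positions 91368724 to 91383359, minus strand), an adaptor described for the ubiquitination of the beta2-adrenergic receptor, was slightly higher in UXS1 KO. It had 752, 680 and 729 counts in UXS1 KO libraries and 598, 618 and 573 counts in CTRL libraries. Its levels were 24.8, 22.1 and 23.1 TPM in UXS1 KO and 19.4, 19.5 and 19.1 TPM in CTRL. The groups stood apart by a small margin, with a ratio of mean TPM of 1.21 and a log2 fold change of 0.27 (SE 0.057).

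ARRDC1 (ENSG00000197070.14, chromosome 9, positions 137605654 to 137615360, plus strand), which recruits the ESCRT protein TSG101 to bud vesicles from the plasma membrane, overlapped between groups, with 1100, 1093 and 1004 counts in UXS1 KO and 1100, 1091 and 1110 counts in CTRL. Its means were 45.4 ± 3.11 TPM in UXS1 KO and 47.0 ± 1.71 TPM in CTRL (SD, n = 3 each), a log2 difference of -0.047 (SE 0.053). ARRDC2 (ENSG00000105643.10, chromosome 19, positions 18001132 to 18014102, plus strand), a less studied member of the family, also overlapped, with 618, 684 and 667 counts in UXS1 KO and 664, 641 and 695 counts in CTRL. It averaged 22.8 ± 0.991 TPM in UXS1 KO and 23.3 ± 1.59 TPM in CTRL (SD, n = 3 each), a log2 difference of -0.024 (SE 0.059). These differences are under their standard errors, and their sign turned when single libraries were left out: ARRDC1 stood at 0.020 without UXS1 KO replicate 3, and ARRDC2 at 0.0054 without UXS1 KO replicate 1 and at 0.025 without CTRL replicate 3.

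**Figure D2:**
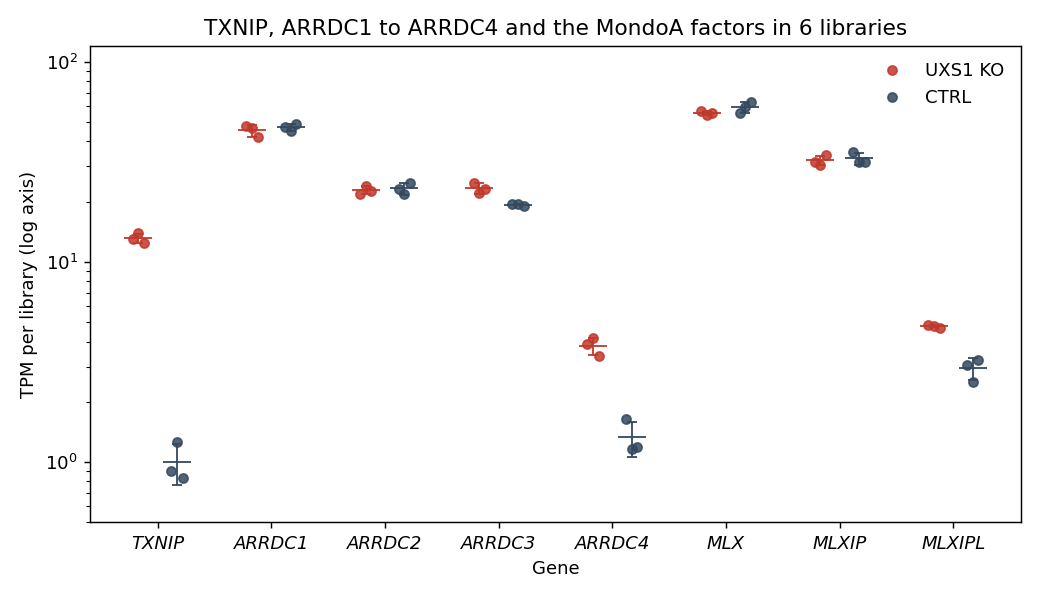
TPM of the 8 genes in each library (log axis); points are libraries, UXS1 KO on the left and CTRL on the right of each gene, horizontal marks are means and bars 1 SD (n = 3). TXNIP at 12.5 to 13.9 TPM in UXS1 KO against 0.830 to 1.27 TPM in CTRL has the widest gap, followed by ARRDC4 and MLXIPL.

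Summed over TXNIP and ARRDC1 to ARRDC4, the family stood at 108 ± 4.27 TPM in UXS1 KO and 91.9 ± 2.90 TPM in CTRL (SD, n = 3 each), with no overlap. TXNIP made up 12.1 ± 0.434% of that sum in UXS1 KO and 1.09 ± 0.291% in CTRL. The sum includes TXNIP, so its lack of overlap is not separate from the TXNIP difference. ARRDC1 remained the most abundant of the 5, at 41.8 ± 1.26% in UXS1 KO and 51.1 ± 0.260% in CTRL. Its own TPM overlapped between groups, so its smaller share in UXS1 KO goes with the larger sum.

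Of the factors that act on TXNIP transcription, the transcripts of MondoA and its partner overlapped between groups while that of ChREBP was higher in UXS1 KO. MLXIP (ENSG00000175727.14, chromosome 12, positions 122078722 to 122147347, plus strand), which encodes MondoA, had 2665, 2628 and 2996 counts in UXS1 KO libraries and 3036, 2791 and 2627 counts in CTRL libraries. Its means were 32.1 ± 1.80 TPM in UXS1 KO and 32.9 ± 2.22 TPM in CTRL (SD, n = 3 each), a log2 difference of -0.030 (SE 0.042), which stood at 0.012 without CTRL replicate 1. Messenger RNA does not show where MondoA protein is in the cell.

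MLX (ENSG00000108788.11, chromosome 17, positions 42567068 to 42573239, plus strand), the shared dimer partner, was the most abundant of the 8 in both groups, with 1470, 1428 and 1491 counts in UXS1 KO and 1461, 1605 and 1613 counts in CTRL. It averaged 55.4 ± 1.23 TPM in UXS1 KO and 59.3 ± 3.73 TPM in CTRL (SD, n = 3 each), a log2 difference of -0.094 (SE 0.048), and the groups overlapped. The gene PSMC3IP covers 18.1% of the exonic length of MLX on the opposite strand. Counting is not stated to use strand, so the overlap may affect the counts of both genes, in a direction not known here. PSMC3IP had 66, 88 and 83 counts in UXS1 KO and 156, 135 and 140 counts in CTRL (log2 fold change -0.86, SE 0.128, edgeR adjusted p = 3e-06). Its part in the MLX value was not tested.

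MLXIPL (ENSG00000009950.16, chromosome 7, positions 73593194 to 73624543, minus strand), which encodes ChREBP, the liver-type sensor, had 141, 143 and 143 counts in UXS1 KO libraries and 91, 77 and 94 counts in CTRL libraries. In TPM it was at 4.81, 4.81 and 4.69 in UXS1 KO, against 3.06, 2.52 and 3.25 in CTRL. All UXS1 KO libraries were above all CTRL libraries, with a ratio of mean TPM of 1.62 and a log2 fold change of 0.70 (SE 0.12). MondoA transcript still exceeded that of ChREBP in every library, by 6.74 ± 0.472 times in UXS1 KO and 11.3 ± 1.46 times in CTRL (ratios of TPM, SD, n = 3 each).

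**Figure D3:**
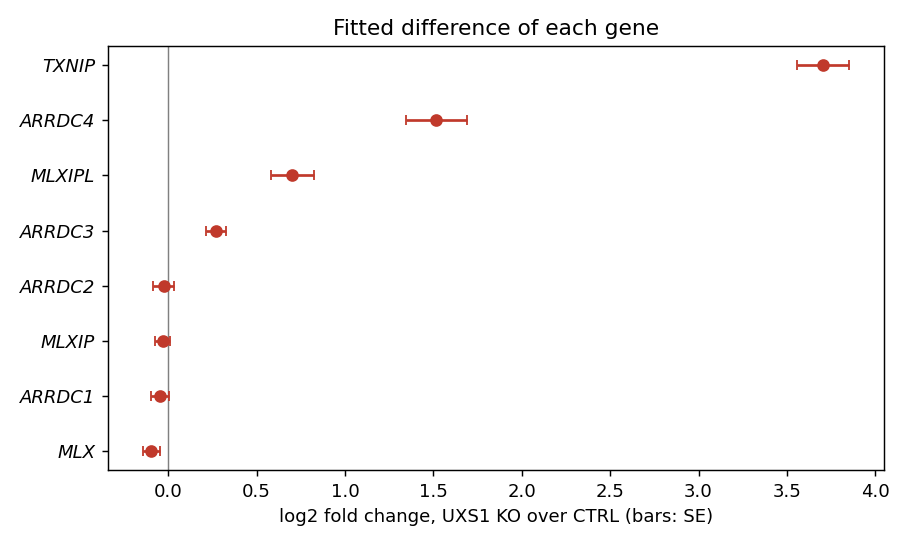
Fitted log2 fold change of each gene, UXS1 KO over CTRL (x axis; points are edgeR estimates and bars 1 SE). TXNIP at 3.70, ARRDC4 at 1.52, MLXIPL at 0.70 and ARRDC3 at 0.27 lie to the right of 0, and ARRDC1, ARRDC2, MLX and MLXIP lie near 0.

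In CPM, 4 of the 8 genes had groups that did not overlap with UXS1 KO higher, where 27.5% of all tested genes did, and 0 had groups that did not overlap with UXS1 KO lower, where 26.9% did. Nothing is read from this count, since the set was chosen with the contrast known. The median log2 fold change of the 8 was 0.12, beside -0.0030 over all tested genes. By TPM, the order in UXS1 KO was MLX, ARRDC1, MLXIP, ARRDC3, ARRDC2, TXNIP, MLXIPL and ARRDC4, and neighbours in that order were apart in all libraries except ARRDC3 and ARRDC2. In CTRL the order was MLX, ARRDC1, MLXIP, ARRDC2, ARRDC3, MLXIPL, ARRDC4 and TXNIP, and there ARRDC4 and TXNIP were the neighbours that overlapped.

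The antisense and neighbouring genes were looked at to see whether they moved with these loci. ARRDC1-AS1 overlaps 0.759% of ARRDC1 exonic length and stood at 347, 400 and 384 counts in UXS1 KO and 367, 374 and 321 counts in CTRL (log2 fold change 0.090, SE 0.074, edgeR adjusted p = 0.34). ARRDC3-AS1, which overlaps 2.94% of ARRDC3 exonic length, had 11, 8 and 10 counts in UXS1 KO and 7, 9 and 9 counts in CTRL, too few to be tested. On the low-coordinate side of TXNIP, 13587 bases away, POLR3GL, which encodes an RNA polymerase III subunit, rose by 0.52 on the log2 scale (SE 0.114, edgeR adjusted p = 0.00041). NBPF10 on the other side was not called (log2 fold change -0.21, SE 0.226, edgeR adjusted p = 0.48), and as one of many near-identical copies its value is uncertain. Single libraries moved both uncalled values: NBPF10 stood between -0.38 (without UXS1 KO replicate 2) and -0.097 (without UXS1 KO replicate 1), and ARRDC1-AS1 between 0.033 (without UXS1 KO replicate 2) and 0.13 (without UXS1 KO replicate 1). Beside ARRDC4, the nuclear receptor gene NR2F2 rose (0.44, SE 0.043, edgeR adjusted p = 2.8e-09) and the growth factor receptor gene IGF1R fell (-0.25, SE 0.037, edgeR adjusted p = 4.5e-06), at distances of 1620435 and 674701 bases.

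The gene whose profile over the 6 libraries was most like that of TXNIP was LBP, a plasma protein that binds lipopolysaccharide. Likeness was the root mean square difference of log2 CPM centred per gene, over the 11133 genes averaging 5 CPM or more, and was 0.191 for LBP. Genes named only by a clone or gene identifier were left out of the ranking. LBP had 220, 250 and 222 counts in UXS1 KO libraries and 22, 21 and 13 counts in CTRL libraries. The next were SERPINA6 (0.489), PLA1A (0.513), CDH16 (0.540) and TCN1 (0.595), all farther away because their log2 fold changes were smaller, from 2.57 to 2.79. With 3 libraries a group this measure is set almost wholly by the difference between the groups.

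Genes that take part in the same biology were then counted from 9 lists of 132 genes, of which 127 were in the table and 111 were tested. Among these 40 rose (36.0%) and 30 fell (27.0%) in UXS1 KO by the edgeR quasi-likelihood test, beside 24.5% and 23.7% of all tested genes, and their median log2 fold change was 0.013. The lists were not matched to all tested genes by expression level, on which the chance of a call depends, so the shares are not like for like. Some list genes called higher, such as IL1B, CASP1, SLC5A2 and PRDX2, passed the filter on low counts only with their UXS1 KO libraries. For such genes a call of lower was hardly possible. Most differences were small next to that of TXNIP.

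Other genes tied to carbohydrate response moved both ways. Of 15 tested, 6 rose and 3 fell, and the median was -0.018 on the log2 scale. PFKFB3, which makes the activator of phosphofructokinase, fell by 0.34 on the log2 scale (SE 0.035, edgeR adjusted p = 8.4e-09), with 415 ± 11.0 CPM in UXS1 KO and 525 ± 12.1 CPM in CTRL (SD, n = 3 each). The fructose kinase gene KHK fell by 0.30 and the transcription factor gene KLF10 fell by 0.18 on the log2 scale (edgeR adjusted p = 0.0011 each). ELOVL6, a fatty acid elongase, rose by 0.19 (edgeR adjusted p = 0.0023). HK2, the inducible hexokinase, had 20, 30 and 26 counts in UXS1 KO and 17, 17 and 18 counts in CTRL and was not called (log2 fold change 0.54, SE 0.263, edgeR adjusted p = 0.092). The count of 6 that rose was 3 with DESeq2, 2 on either TPM scale, and 3 without UXS1 KO replicate 1, UXS1 KO replicate 3 or CTRL replicate 1, and it was 4 without CTRL replicate 3.

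Genes of glucose uptake and of glucose 6-phosphate, the signal that MondoA reads, moved both ways. Of 19 tested, 10 rose and 6 fell, and the median was 0.14 on the log2 scale. The glucose 6-phosphatase gene G6PC3 rose by 0.33 (SE 0.038, edgeR adjusted p = 5.8e-08), H6PD, which oxidizes glucose 6-phosphate in the endoplasmic reticulum, by 0.37, phosphoglucomutase PGM1 by 0.28 and the transporter SLC2A12 by 0.57 (edgeR adjusted p from 1.7e-07 to 0.00021 for these 3). SLC2A1, which encodes the main glucose transporter GLUT1 whose surface level TXNIP limits, averaged 274 ± 9.15 CPM in UXS1 KO and 302 ± 15.7 CPM in CTRL (SD, n = 3 each). Its log2 fold change was -0.14 (edgeR adjusted p = 0.0040), and the call was lost on log2(TPM + 1) (limma adjusted p = 0.0545) and log2(TPM + 0.1) (limma adjusted p = 0.0551), on which 3 genes of the list fell in place of 6.

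Of the thioredoxin and thioredoxin reductase genes, TXN, for the thioredoxin that TXNIP binds, and TXNRD1 had lower transcript levels in UXS1 KO. TXN2 was called higher (log2 fold change 0.12, edgeR adjusted p = 0.024). TXNRD2 (-0.11, edgeR adjusted p = 0.12) and TXNRD3 (0.043, edgeR adjusted p = 0.77) were not called. TXN averaged 630 ± 0.668 CPM in UXS1 KO and 749 ± 42.3 CPM in CTRL (SD, n = 3 each), and it fell by 0.25 on the log2 scale (SE 0.038, edgeR adjusted p = 4.7e-06). TXNRD1, the cytosolic thioredoxin reductase, was at 28729, 29233 and 29250 counts in UXS1 KO libraries and 41728, 41389 and 37940 counts in CTRL libraries, and fell by 0.47 on the log2 scale (SE 0.035, edgeR adjusted p = 1.7e-11). NXN, a thioredoxin-like nucleoredoxin, fell by 0.74 and the glutaredoxin GLRX3 fell by 0.35 on that scale, while GLRX rose by 0.36 (edgeR adjusted p = 8e-07). Of all 24 genes of this list, each of them tested, 8 rose and 6 fell, and the median was -0.0044. The 8 that rose were 4 with DESeq2, 5 without UXS1 KO replicate 1, 2 or 3, and 4 without CTRL replicate 1.

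NEDD4-family ligases, which bind PPxY motifs of TXNIP and of several ARRDC proteins, moved both ways. Of 11 tested ligases and adaptors, 2 rose and 5 fell, and the list's median was -0.10. ITCH, the ligase known to send TXNIP to the proteasome, was at 51.3 ± 2.50 CPM in UXS1 KO and 60.6 ± 3.15 CPM in CTRL (SD, n = 3 each), and fell by 0.24 on the log2 scale (SE 0.049, edgeR adjusted p = 2e-04). SMURF2 fell by 0.24 and NEDD4 fell by 0.21 on the log2 scale, and WWP1 rose by 0.22 (edgeR adjusted p = 0.00018). On log2(TPM + 1) the call of NEDD4 was lost (limma adjusted p = 0.0636), and 2 members of the list fell there and on log2(TPM + 0.1).

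ESCRT genes, the machinery that ARRDC1 recruits, had small differences: of 12 tested, 4 rose and 3 fell, and the list's median was 0.067. HGS fell by 0.18 on the log2 scale (SE 0.038, edgeR adjusted p = 0.00029). VPS37B rose by 0.17, a call lost without CTRL replicate 1 (edgeR adjusted p = 0.0514), and STAM fell by 0.15, lost without UXS1 KO replicate 3 (edgeR adjusted p = 0.088) or CTRL replicate 2 (edgeR adjusted p = 0.0545). CHMP4B at 0.13 lost its call without UXS1 KO replicate 1 or 2, or CTRL replicate 1 or 3 (edgeR adjusted p from 0.0601 to 0.134). TSG101 itself was at 1948, 1948 and 1951 counts in UXS1 KO and 1820, 1863 and 1747 counts in CTRL, a log2 fold change of 0.11 called at an edgeR adjusted p = 0.032 and lost with DESeq2 (adjusted p = 0.0851), with no filter (0.0704) and without UXS1 KO replicate 1 or 2, or CTRL replicate 1 or 3 (edgeR adjusted p from 0.0715 to 0.126). The 4 that rose were 2 with DESeq2, with no filter, without UXS1 KO replicate 1 and without CTRL replicate 3, and 1 without UXS1 KO replicate 2 or CTRL replicate 1, and the 3 that fell were 1 without UXS1 KO replicate 3 or CTRL replicate 2.

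Among 10 tested AMPK subunits and upstream kinases, which act on TXNIP protein stability, 3 rose and 3 fell, and the list's median was -0.052. The regulatory subunit gene PRKAG2 fell by 0.51 on the log2 scale (SE 0.060, edgeR adjusted p = 8.3e-08) and CAB39, a scaffold of the upstream kinase, fell by 0.16, while PRKAG1 rose by 0.22 and PRKAB2 by 0.24. The catalytic subunit genes PRKAA1 and PRKAA2 were not called, at log2 fold changes of -0.010 and 0.0019 (edgeR adjusted p = 0.85 and 0.99).

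In the MYC, MAX and MXD network, whose MXD1, MXD4 and MNT also pair with MLX, 2 of 9 tested genes rose and 3 fell, and the list's median was 0.049. The repressor partners MXD4 and MXD1 rose by 0.52 (SE 0.042, edgeR adjusted p = 8.3e-11) and 0.56 (SE 0.102, edgeR adjusted p = 5.1e-05). MYC fell by 0.62 on the log2 scale (SE 0.039, edgeR adjusted p = 4.4e-13), at 1620, 1623 and 1737 counts in UXS1 KO and 2613, 2617 and 2438 counts in CTRL, and MXD3 fell by 0.69. MNT was not called (0.049, SE 0.063, edgeR adjusted p = 0.55).

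Of 5 tested arrestin-fold genes outside the ARRDC family, ARRB1 (beta-arrestin 1) rose by 0.48 (SE 0.069, edgeR adjusted p = 2.1e-06), and none fell. ARRB2 (-0.083, edgeR adjusted p = 0.14) and the retromer subunit genes VPS26A (-0.076, edgeR adjusted p = 0.14) and VPS26B (-0.070, edgeR adjusted p = 0.20) were not called, and the median of the list was -0.070. With a library left out, ARRB2 stood between -0.12 (without UXS1 KO replicate 2) and -0.019 (without UXS1 KO replicate 3), and VPS26A between -0.11 (without CTRL replicate 2) and -0.041 (without CTRL replicate 1), with no call in any of these fits.

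Of 6 tested NLRP3 inflammasome genes, a complex that TXNIP binds when it dissociates from thioredoxin, 4 rose and 1 fell, and the list's median was 0.30. IL1B had 41, 46 and 46 counts in UXS1 KO and 6, 10 and 5 counts in CTRL, a rise of 2.64 (SE 0.286, edgeR adjusted p = 1.9e-08), which was 1.30 on log2(TPM + 1). CASP1 rose by 1.45 at 30, 22 and 28 counts in UXS1 KO against 9, 16 and 4 counts in CTRL, and PYCARD and GSDMD rose by 0.38 and 0.22. NLRP3 itself was not tested, with 1 count in all of UXS1 KO and 0 in all of CTRL. IL18, the member that fell, stood at -0.11 and lost its call with DESeq2 (adjusted p = 0.0703), with library size only (edgeR adjusted p = 0.0567) and without UXS1 KO replicate 1 or 2 or CTRL replicate 2 (edgeR adjusted p from 0.0614 to 0.128). With a mean of at least 5 CPM, which leaves IL1B and CASP1 out, 2 of the list rose. The tested leukocyte markers were also higher in UXS1 KO, with the limit on LYZ given above, and their part in these values was not tested.

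**Figure D4:**
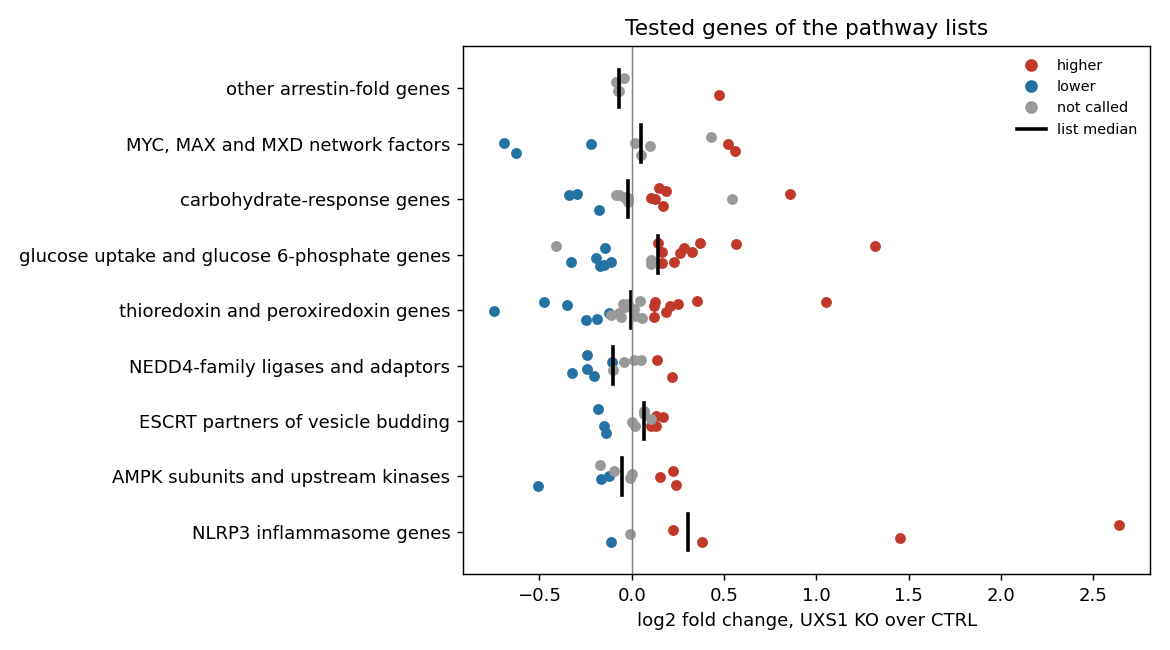
Fitted log2 fold change (UXS1 KO over CTRL, x axis) of each tested gene of the 9 pathway lists; red points were called higher, blue points lower and grey points not called at an edgeR adjusted p under 0.05, and black bars are list medians. List medians run from -0.10 for NEDD4-family ligases and adaptors to 0.30 for NLRP3 inflammasome genes. Of the latter list, IL1B and CASP1 passed the filter on low counts only through UXS1 KO. Genes called higher and genes called lower both occur in each list except the other arrestin-fold genes. Of these, ARRB1 was called higher and none lower.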

How the data were processed

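Gene-level counts and TPM were available for 6 A549 libraries, with groups and replicate numbers from the sample titles. The authors deposited whole-number counts with no normalization and TPM values, which sum to the same total in each library, per the file headers and the values. Per the submitters' processing notes, STAR, featureCounts, DESeq2 and hg38 were used, with no versions. The strand setting and annotation release were not given in the sources used here.

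Genes were kept with filterByExpr (minimum count 10), leaving 15757 of 28317, scaled by TMM and tested by the quasi-likelihood method of edgeR 4.0.16 in R 4.3.3 (group only, two-sided, Benjamini-Hochberg adjusted p under 0.05 over all tested genes). A log2 fold change is UXS1 KO over CTRL, with its SE taken from the F statistic. CPM uses the TMM factors (0.987 to 1.01), and 1 CPM stood for 21.0 to 22.4 scaled counts per library. The members and lists were chosen with earlier results of these data known. For single genes, an exact permutation test of 3 against 3 libraries cannot go below p = 0.1 and was not used.

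Named genes are the 8 members, UXS1, antisense and nearest tested protein-coding neighbours, the 5 profiles most like TXNIP and in each list the 4 or fewer tested genes lowest in adjusted p. Others were named after their values were seen. These are TXN, TXN2, TXNRD2, TXNRD3, PRDX2, SLC2A1, SLC5A2, HK2, TSG101, IL18, MNT, PRKAA1, PRKAA2, NLRP3, PSMC3IP and the markers given. Positions and exon overlaps come from GENCODE 29 (GRCh38) and promoter sequences from RefSeq (GRCh38.p14). The planned comparison of the members' proteins was not made. Within a group, pairs of libraries had a chi-square of 1.60 to 3.39 per degree of freedom, above sampling noise, against 26.2 to 28.8 between groups. Each library counted as 1 sample, although these values cannot tell separate infections from libraries of 1 infected culture. The pipeline was run on simulated data in which a far smaller share of genes changed than was called here. That run does not test the scaling or the calls in data changed this widely. Alternatives were DESeq2 1.42.0, limma-voom (limma 3.58.1), RLE scaling, scaling by library size only, no filter on counts, a minimum mean of 5 CPM, the replicate number as a block, leaving out each library, and limma on log2(TPM + 1) or log2(TPM + 0.1) for genes averaging 1 TPM or more.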

Additional observations from a re-analysis of the deposited data

How the results depend on the processing

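Over the alternatives the numbers of genes called ran from 3008 to 4064 higher and from 3030 to 3896 lower, and with a library left out from 3415 to 3654 and from 3209 to 3515. The pathway genes called ran from 30 to 41 higher and from 21 to 31 lower, and from 31 to 40 and 24 to 29 with a library left out, and UXS1 from -0.92 to -0.85. On log2(TPM + 1), whose pseudocount shrinks low levels by construction, the difference was 2.82 for TXNIP, 1.05 for ARRDC4 and 0.55 for MLXIPL. With a library left out TXNIP ran from 3.59 to 3.93, ARRDC4 from 1.44 to 1.68, MLXIPL from 0.61 to 0.78, ARRDC3 from 0.23 to 0.30 and MLX from -0.15 to -0.051. The sign turns of ARRDC1, ARRDC2 and MLXIP are given above. With the replicate number as a block, 4002 genes were called higher and 3896 lower, and 41 and 31 of the pathway genes. Deviations of same-numbered libraries from their group means correlated at 0.010, 0.11 and 0.14 for replicates 1, 2 and 3. The values for replicates 2 and 3 were the highest of any pair. Pairs with unlike numbers ran from -0.15 to 0.055, the latter for UXS1 KO replicate 1 with CTRL replicate 2. Whether the numbers pair the samples is not settled by these values, and the main fit used the group only. At the CTRL level of TXNIP, 18 to 29 counts per library, counting error limits the precision of the fold change.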
